A study of Mus musculus with 18 samples.

Results

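The 47 protein-coding mouse genes named Psma to Psmg, which but for Psmc3ip encode subunits, activators, an inhibitor and assembly chaperones of the proteasome, were examined among the 54446 genes measured in eosinophils cultured with apoptotic cells (ACs). They were chosen by symbol and biotype, with no threshold on their values, and the inducible immunoproteasome subunits Psmb8, Psmb9 and Psmb10 were left out. The members lie on 16 chromosomes, and 44 of them passed the filter on low values over the Type 1 libraries and 43 over those of the IL-4 experiment. The cells were peritoneal eosinophils of Il5Tg mice (strain label C57BL/6), in which an Il5 transgene drives eosinophil expansion, and they were cultured for 18 h with 5 ACs per eosinophil. The ACs were dexamethasone-killed thymocytes of wild-type mice aged 4 to 6 weeks. The Type 1 experiment held 3 libraries of ACs alone, which served as the control, and 3 each of IFN-γ + ACs, E. coli + ACs and IFN-γ + E. coli + ACs, whereas the IL-4 experiment held 3 of IL-4 + ACs and 3 of its own ACs alone. All 6 groups thus contained ACs, and eosinophils without ACs were not analysed here. For the combined group the study describes IFN-γ followed by E. coli, and the interval between them is not given in the sources used here. B220+ and Thy1.2+ cells had been depleted before culture and Siglec-F+ cells were selected after it, and the 3′ ends of transcripts were then sequenced with the CEL-Seq2 protocol. The study calls its replicates biological and describes the libraries of ACs alone in a heat plot as coming from separate mice, whereas the labels do not tie libraries to mice. The age of the mice, and whether groups shared mice, are not given in the sources used here.

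The proteasome is the main ATP-dependent protease of the cytosol and nucleus. Its 20S core is a barrel of outer α rings (Psma genes), which gate the entrance, and inner β rings (Psmb genes), in which Psmb6, Psmb7 and Psmb5 carry the caspase-like, trypsin-like and chymotrypsin-like sites. The 19S regulatory particle consists of a base, with a ring of ATPases (Psmc genes) that unfold ubiquitinated proteins, and a lid (Psmd genes) that holds the deubiquitinase Psmd14, and together with the core it forms the 26S proteasome. Other caps can open the core without ubiquitin or ATP, among them PA28αβ (Psme1 and Psme2), PA28γ (Psme3) and PA200 (Psme4), whereas Psmf1 encodes the inhibitor PI31, and Psmg1 to Psmg4, Psmd5, Psmd9 and Psmd10 encode chaperones that build the particle and leave it. In many cells IFN-γ is known to induce PA28αβ and the immunoproteasome subunits, which replace the constitutive catalytic subunits in newly made cores.

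The libraries held 779421 to 7782072 reads on genes, with a median of 4461120. Values are given as normalized counts, that is, reads divided by a size factor of the library. The libraries numbered 3 in the IL-4 experiment were the shallowest, with 779421 and 849705 reads, and 3 reads there equalled 16.1 and 15.4 normalized counts. The members together took 0.414 to 0.435% of the reads with ACs alone, 0.488 to 0.520% with E. coli, 0.524 to 0.576% with IFN-γ and 0.464 to 0.500% with IFN-γ + E. coli. With the IL-4 experiment's ACs alone they took 0.389 to 0.431%, and 0.444 to 0.469% with IL-4. The eosinophil markers Ccr3 and Siglecf were abundant in every library, at 2623 to 4934 and 1514 to 3367 normalized counts, whereas the granule peroxidase transcript Epx was at 0 to 25.7. Summed over 8 eosinophil markers, the level was 16834 to 18317 with ACs alone, 18308 to 19622 with E. coli, 10324 to 11552 with IFN-γ and 15038 to 17572 with IFN-γ + E. coli. In the IL-4 experiment it was 21773 to 24363 with ACs alone and 24389 to 27105 with IL-4. These sums mix genes that moved apart. With IL-4 5 of the 8 changed upward, with Ear6 from a mean of 4515 to 8328. The 3 that changed downward were Siglecf (2625 to 2380), Ccr3 (3440 to 3100) and Alox15 (11743 to 10640). With IFN-γ + E. coli 2 of the 7 tested changed upward and 5 downward, and Ccr3 was at a mean of 4498, beside 3275 with ACs alone. The macrophage markers also differed between groups. Their sum over 10 genes, none of them at 0 throughout a group, was 13528 to 16902 with ACs alone, 6929 to 8103 with E. coli, 17705 to 25556 with IFN-γ and 7515 to 7835 with IFN-γ + E. coli, and C1qc alone ranged from 2138 to 14355. That sum was 19176 to 27440 with ACs alone and 16895 to 26861 with IL-4 in the IL-4 experiment. The 10 genes did not move together. With IFN-γ 6 changed upward and 4 downward, with Mrc1 from a mean of 109 to 17.9 and Cd163 from 52.6 to 5.69. With E. coli, and likewise with IFN-γ + E. coli, 9 changed downward and 1 upward. The latter was Adgre1, at a mean of 1806 with ACs alone, 2366 with E. coli and 2987 with IFN-γ + E. coli. The sum over 8 neutrophil markers was 50.6 to 66.6 with ACs alone, 317 to 458 with E. coli, 150 to 201 with IFN-γ and 165 to 243 with IFN-γ + E. coli, with S100a8 at 10.3 to 383 over all libraries and Mpo and Elane at 0 in all 9 stimulated libraries of that experiment. Markers of thymocytes, B cells and mast cells summed to at most 180.3, 83.4 and 66.5 in any library. The part of these other cells in the results on proteasome transcripts was not tested, and in bulk samples fewer cells of a type and less RNA per cell cannot be told apart.

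Promoter sequences were matched by symbol to RefSeq (build GRCm38.p6) for 39 of the 47 members, in 42 windows of 300 bases that ran from 250 bases before the transcript start. The interferon-stimulated response element (ISRE), written as GAAA, any 2 bases and GAAA and searched on both strands, matched in the windows of 5 of these 39 members (12.8%), which were Psmb3, Psmd4, Psmd9, Psme1 and Psmg4, against 3.44% of all 32851 windows. The interferon-γ activated site (GAS), TTCNNNGAA, matched for 2 members (5.13%) against 8.30% of all windows. TGACNNNGC, the core of the antioxidant response element bound by NRF factors, matched for 6 members (15.4%) against 12.4%, and CCAAT for 14 members (35.9%) against 37.4%. A member was counted where any of its windows matched, whereas the share over all was taken per window. These matches are descriptions of the sequence and not sites of binding, and the patterns were searched independently of one another. The 100 bases around the start (70 before it and 30 from it) are shown for Psme1 and Psme2, the activator pair that rose with IFN-γ, for Psma5, which rose with all Type 1 stimuli, and for Psmg4, the assembly chaperone that rose with IFN-γ + E. coli. Capitals mark a match to the ISRE letters on either strand, which lay at bases 10 to 19 from the start in Psme1, on the reverse strand, and at bases 16 to 25 in Psmg4. Members with a match did not all rise. Among those not shown, Psmb3 and Psmd4 did not pass the test with IFN-γ, and Psmd9 fell with IFN-γ + E. coli. Psme2 has another annotated start, with a window at chr14:55590992-55591091 on the minus strand, which is not shown. The Psme1 window is chr14:55578424-55578523 on the plus strand, the Psme2 window shown chr14:55591072-55591171 on the minus strand, the Psma5 window chr3:108256856-108256955 on the plus strand and the Psmg4 window chr13:34162894-34162993 on the plus strand.
Psme1: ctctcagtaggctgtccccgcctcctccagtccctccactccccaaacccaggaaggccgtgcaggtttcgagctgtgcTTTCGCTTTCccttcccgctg
Psme2: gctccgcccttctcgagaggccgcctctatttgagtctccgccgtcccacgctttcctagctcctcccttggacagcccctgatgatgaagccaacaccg
Psma5: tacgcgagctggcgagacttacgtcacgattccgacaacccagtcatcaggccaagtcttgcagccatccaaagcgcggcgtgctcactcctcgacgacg
Psmg4: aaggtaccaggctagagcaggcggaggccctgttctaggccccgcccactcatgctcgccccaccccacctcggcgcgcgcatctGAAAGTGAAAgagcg

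With IFN-γ alone, transcripts of most members rose, with E. coli alone or with both stimuli fewer did, and with IL-4 none passed the test. The comparisons used limma on log2(normalized count + 1), and a transcript was past the threshold where the adjusted p was under 0.05 and the groups differed by 1.5-fold or more. With IFN-γ, 14 of 44 members were higher past the threshold, against 11.4% of all genes tested, and none was lower, against 9.96%. The median change of the members was a log2 of 0.48, beside 0.00 over all genes. Without the threshold on fold, 25 of 44 members were higher at an adjusted p under 0.05, against 15.3% of all genes. With E. coli, 2 members rose past the threshold, which is close to the share of all genes (5.05%), and none fell, against 5.25%, whereas 10 of 44 were higher at any size, against 7.26%. The median with E. coli was 0.30. With IFN-γ + E. coli, 7 members rose, against 14.7% of all genes, and 4 fell, against 17.2%, with a median of 0.30 beside −0.05 over all genes. At any size, 17 were higher, against 19.8%, and 5 were lower, against 19.3%. The lowest library of a group lay above the highest library of its own ACs for 26 members with E. coli (against 19.9% of genes), 32 with IFN-γ (against 22.6%), 19 with IFN-γ + E. coli (against 23.9%) and 7 with IL-4 (against 8.45%). The reverse held for 1 member with E. coli (18.4%), 1 with IFN-γ (20.3%), 6 with IFN-γ + E. coli (24.8%) and 0 with IL-4 (8.84%). The 3 Type 1 comparisons shared the same ACs libraries, so that their counts are not independent of each other. In all, 20 members were past the threshold in at least 1 of the 4 comparisons and 24 of those tested in none. Of the 14 members that rose with IFN-γ, 5 were also past the threshold with IFN-γ + E. coli and 9 were not, and Psma5 was past it in all 3 Type 1 comparisons. The shares of all genes past the threshold in at least 1 comparison, or in more than 1, are not given here. These counts across comparisons are therefore not read as particular to the members. Rescaling to a common upper quartile moved the median of all genes with IFN-γ + E. coli by −0.14, from −0.05 to −0.18, and turned the members from 7 higher and 4 lower to 4 higher and 5 lower, with 1155 genes higher and 2200 lower in place of 1494 and 1746. On that scaling 9 members rose with IFN-γ. The count with E. coli became 5 without the ACs replicate 2 library, the count of rises with IFN-γ + E. coli 4 without replicate 3 of that group, and the count of falls 2 without the ACs replicate 1 library.

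**Figure D1:**
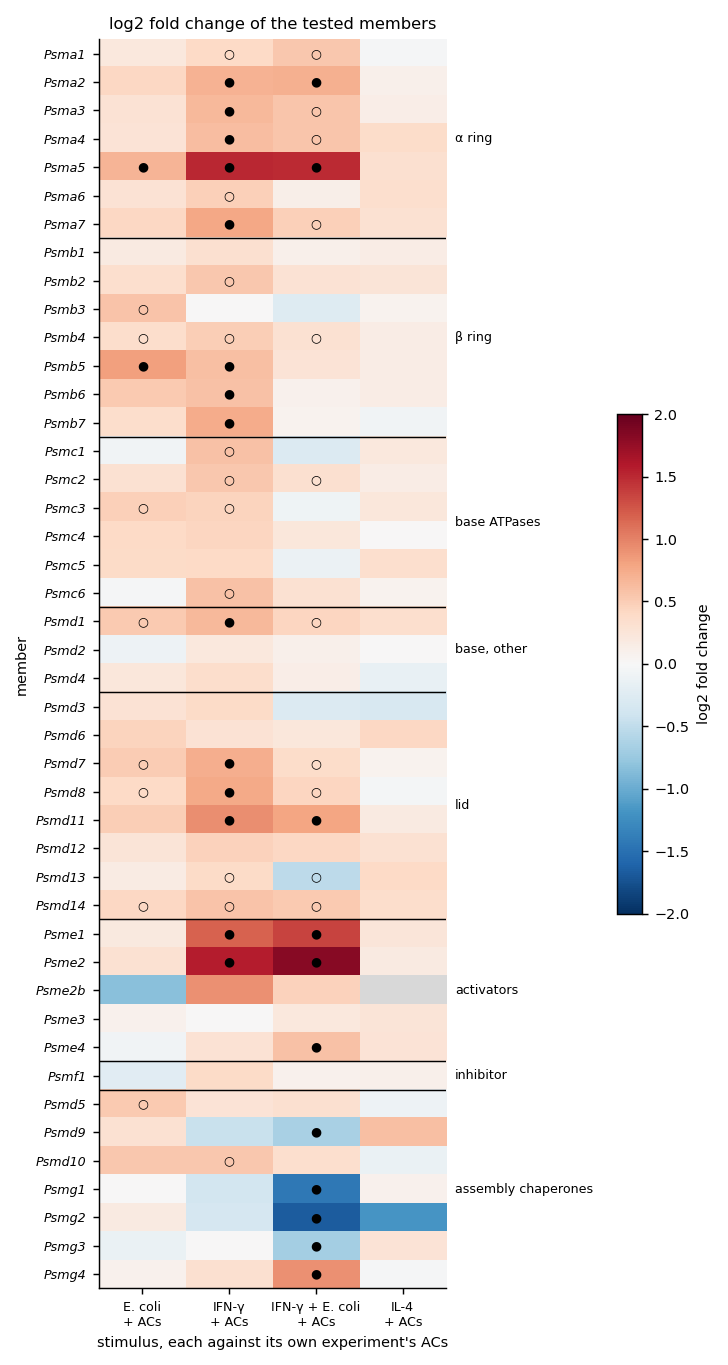
Log2 fold changes of the 44 members tested (rows, grouped by their place in the proteasome) in the 4 comparisons with ACs alone (columns), with colour from blue (lower) to red (higher). A filled dot marks a change past the threshold and an open dot one at an adjusted p under 0.05 below 1.5-fold, and grey marks a member not tested; 14 filled dots stand in the IFN-γ column, 11 in the IFN-γ + E. coli column, 2 in the E. coli column and 0 in the IL-4 column.

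The 2 subunits of the PA28αβ activator rose with IFN-γ and with IFN-γ + E. coli, and PA200 rose with the latter, whereas PA28γ did not pass the test in any comparison. Psme1 (chr14:55578123-55581529, plus strand) was measured at 576, 557 and 521 with ACs alone, 648, 585 and 670.3 with E. coli, 1124, 1293 and 1324 with IFN-γ and 1498, 1462 and 1291 with IFN-γ + E. coli. Psme1 was at 582, 590.1 and 756 with ACs alone and 689, 671 and 925 with IL-4 in the IL-4 experiment. All libraries with IFN-γ, alone or with E. coli, thus lay above every library without it in the Type 1 experiment. Psme1 rose 2.26-fold (log2 1.17 ± 0.11 SE, adjusted p = 2.2e-07) with IFN-γ and 2.57-fold (log2 1.36 ± 0.11 SE, adjusted p = 2e-08) with IFN-γ + E. coli. Its 3′ end overlaps that of Emc9 on the opposite strand, and the strand setting of the counting is not given in the sources used here. Psme2 (chr14:55587441-55591113, minus strand), the β subunit of the same ring, was at 96.8, 94.8 and 100.3 with ACs alone, 129.8, 110.4 and 121 with E. coli, 270.4, 291 and 312 with IFN-γ and 308, 388 and 346 with IFN-γ + E. coli, and at 102, 93.4 and 145 with ACs alone and 119, 106 and 159 with IL-4 in the IL-4 experiment. Here too no library with IFN-γ overlapped the ACs or E. coli libraries. The rise of Psme2 was 2.97-fold (log2 1.57 ± 0.15 SE, adjusted p = 1.6e-07) with IFN-γ and 3.53-fold (log2 1.82 ± 0.15 SE, adjusted p = 1.4e-08) with IFN-γ + E. coli. With E. coli alone the changes were log2 0.20 ± 0.11, adjusted p = 0.28 for Psme1 and log2 0.30 ± 0.15, adjusted p = 0.21 for Psme2, and with IL-4 log2 0.24 ± 0.17, adjusted p = 0.7 and log2 0.18 ± 0.24, adjusted p = 0.83. Psme2b (chromosome 11), a copy of Psme2 with 789 of 794 aligned transcript bases identical (99.4%), was at 17.9, 24.4 and 26.1 with ACs alone, 11.7, 14.7 and 10.6 with E. coli, 48.8, 28.7 and 57.5 with IFN-γ and 38.5, 34.2 and 23.4 with IFN-γ + E. coli. None of its changes against ACs passed the test, and its reads are uncertain because the copies are nearly identical and because it lies inside 9930111J21Rik1 and Gm12185 on the same strand.

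Psme3 (chr11:101316213-101323537, plus strand), which encodes the nuclear cap PA28γ, was at 498, 525 and 458 with ACs alone, 517, 516 and 536 with E. coli, 561, 522 and 415 with IFN-γ and 604, 589 and 517 with IFN-γ + E. coli. Psme3 was at 570.0, 507 and 579 with ACs alone and 597, 595 and 797 with IL-4 in the IL-4 experiment. The Type 1 groups overlapped throughout, and the change was log2 0.01 ± 0.13, adjusted p = 0.98 with IFN-γ (95% interval −0.27 to 0.28) and log2 0.21 ± 0.13, adjusted p = 0.22 with IFN-γ + E. coli. The sign of the change with IFN-γ turned on the common upper quartile, at −0.083. Psme4 (chr11:30771726-30880361, plus strand), which encodes PA200, was at 311, 283 and 315 with ACs alone, 301, 282 and 277 with E. coli, 355, 354 and 398 with IFN-γ and 412, 463 and 498 with IFN-γ + E. coli. Psme4 was at 248, 225 and 375 with ACs alone and 346, 310.4 and 344 with IL-4 in the IL-4 experiment. The libraries with both stimuli were the highest of the Type 1 experiment, and those with IFN-γ alone lay between them and ACs. Psme4 rose 1.51-fold (log2 0.59 ± 0.13 SE, adjusted p = 0.0011) with IFN-γ + E. coli. That change was under 1.5-fold without replicate 2 (0.58) or 3 (0.53) of IFN-γ + E. coli, or without the ACs replicate 2 library (0.54), on the log2 scale.

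**Figure D2:**
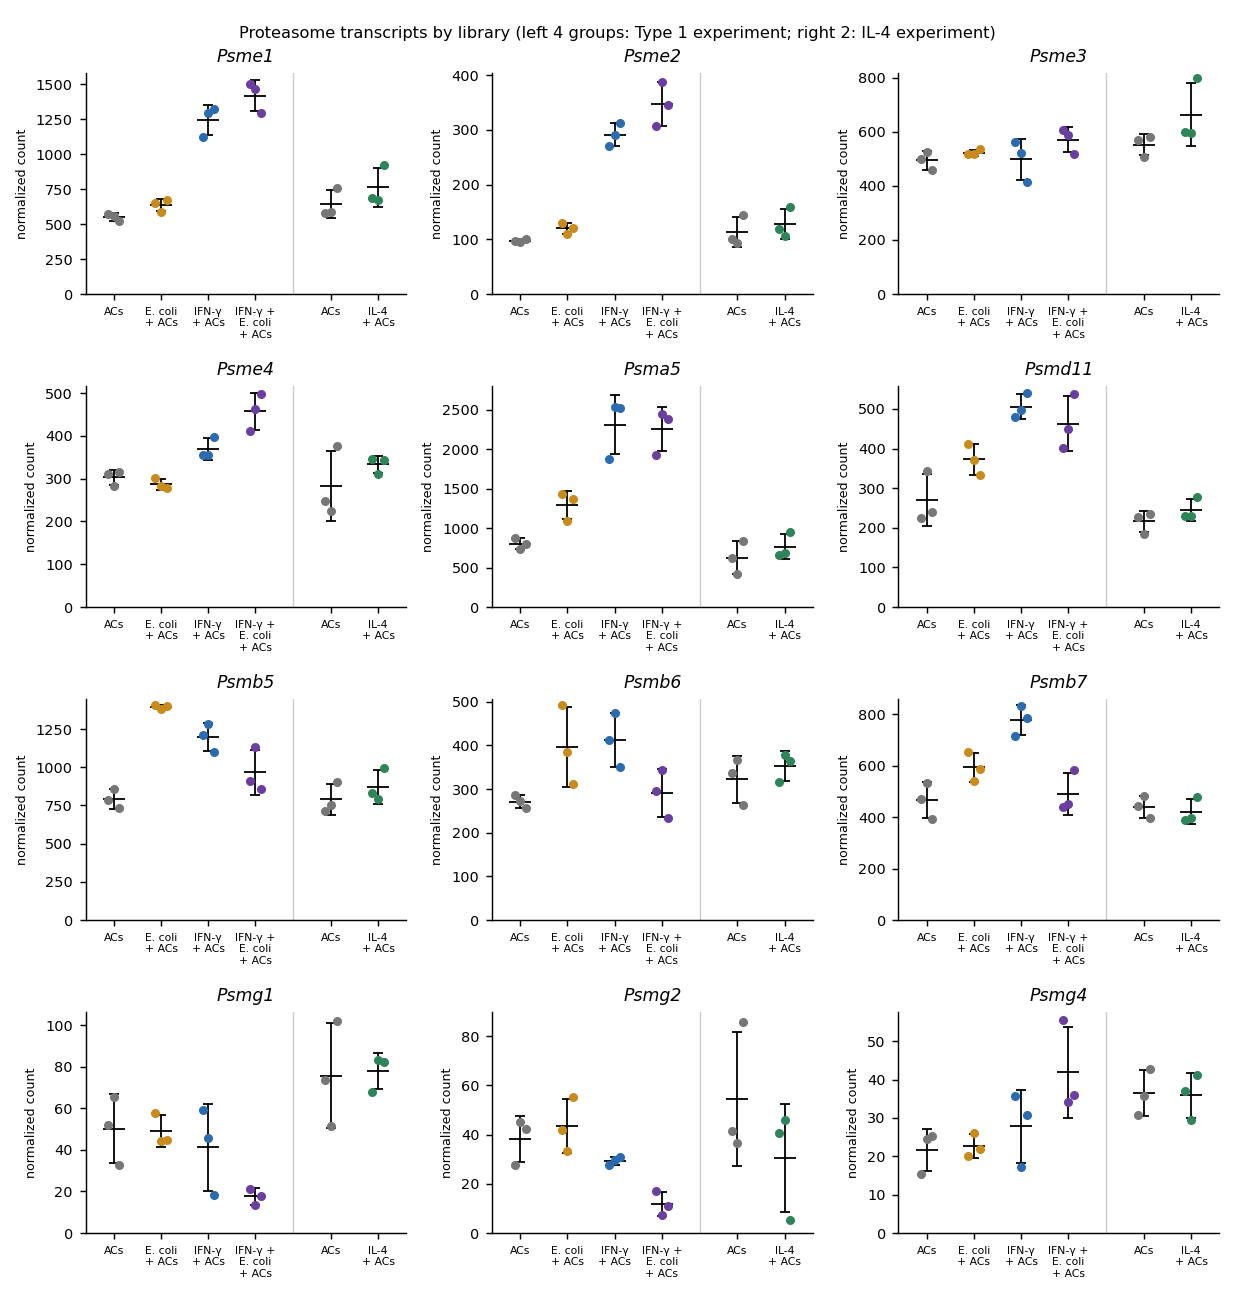
Normalized counts per library of 12 members (panels) in the 6 groups (horizontal axis), with points for libraries and bars for the mean ± SD of 3 libraries. Psme1, Psme2 and Psma5 stand apart from ACs alone in both groups with IFN-γ, Psmb5, Psmb6 and Psmb7 are higher with IFN-γ alone than with IFN-γ + E. coli on average, and Psmg1 and Psmg2 are lowest with IFN-γ + E. coli among the Type 1 groups.

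The α ring rose as a whole with IFN-γ. With IFN-γ all 7 tested α subunits were higher at an adjusted p under 0.05, against 15.3% of all genes. Of them 5 were past the threshold, against 11.4%, and the median log2 was 0.64. With IFN-γ + E. coli 6 were higher, against 19.8%, and 2 of them past the threshold, against 14.7% (median 0.55). E. coli alone raised 1 of 7 past it, against 5.05% (median 0.29). Psma5 (chr3:108256926-108279974, plus strand), encoding α5, was at 877, 734 and 797 with ACs alone, 1427, 1087 and 1368 with E. coli, 1876, 2529 and 2524 with IFN-γ and 1930.1, 2450.4 and 2384 with IFN-γ + E. coli. Psma5 was at 623, 424 and 836 with ACs alone and 665, 684 and 946 with IL-4 in the IL-4 experiment. The 3 groups of stimulated libraries all lay above the ACs libraries of their experiment, and those with IFN-γ, alone or with E. coli, lay above those with E. coli alone. Psma5 rose 1.60-fold (log2 0.68 ± 0.14 SE, adjusted p = 0.0026) with E. coli, 2.86-fold (log2 1.51 ± 0.14 SE, adjusted p = 1.4e-07) with IFN-γ and 2.80-fold (log2 1.49 ± 0.14 SE, adjusted p = 1.1e-07) with IFN-γ + E. coli. Its start is overlapped by the antisense transcript 1700010K24Rik. Psma2 (chr13:14613240-14674236, plus strand), encoding α2, was at 455, 498 and 445 with ACs alone, 652, 597 and 624 with E. coli, 649, 719 and 917 with IFN-γ and 743, 633 and 948 with IFN-γ + E. coli, and at 426, 431 and 552 with ACs alone and 496, 486 and 519 with IL-4 in the IL-4 experiment. The ranges did not overlap ACs with any of the Type 1 stimuli. Psma2 rose 1.62-fold (log2 0.69 ± 0.15 SE, adjusted p = 0.0017) with IFN-γ and 1.64-fold (log2 0.71 ± 0.15 SE, adjusted p = 0.00089) with both stimuli, but its log2 change was 0.55 without replicate 3 of IFN-γ and 0.56 without replicate 3 of IFN-γ + E. coli, which is under 1.5-fold, and AW209491 overlaps it on the same strand.

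Psma3 (chr12:70974621-70996347, plus strand), encoding α7, was at 1141, 1082 and 999 with ACs alone, 1305, 1320.3 and 1319 with E. coli, 1691, 1657 and 1679 with IFN-γ and 1604, 1346 and 1821 with IFN-γ + E. coli. Psma3 was at 1184, 993 and 1222 with ACs alone and 1189, 1159 and 1388 with IL-4 in the IL-4 experiment. The ACs libraries were below all other libraries of the Type 1 experiment. Psma3 rose 1.56-fold (log2 0.64 ± 0.11 SE, adjusted p = 0.00027) with IFN-γ and, below 1.5-fold, 1.47-fold (log2 0.56 ± 0.11 SE, adjusted p = 0.00068) with IFN-γ + E. coli. Psma4 (chr9:54950790-54958030, plus strand), encoding α3, was at 529, 503 and 521 with ACs alone, 635, 639 and 604 with E. coli, 724, 800.1 and 852 with IFN-γ and 847, 639 and 808 with IFN-γ + E. coli, and at 541, 504 and 724 with ACs alone and 718, 678 and 864 with IL-4 in the IL-4 experiment. The ACs libraries were again the lowest of the Type 1 experiment. Psma4 rose 1.53-fold (log2 0.61 ± 0.12 SE, adjusted p = 0.00094) with IFN-γ, and its log2 change was 0.56 without replicate 3 of IFN-γ. With both stimuli it rose 1.47-fold (log2 0.55 ± 0.12 SE, adjusted p = 0.0015), under the threshold on fold. Psma7 (chr2:180036374-180042433, minus strand), encoding α4, was at 591, 629 and 614 with ACs alone, 984, 749.7 and 731 with E. coli, 946, 1052 and 1133 with IFN-γ and 666, 1055 and 877 with IFN-γ + E. coli, and at 796, 719 and 836 with ACs alone and 1054, 976 and 874 with IL-4 in the IL-4 experiment. A library with both stimuli, at 666, lay near the highest ACs library, at 629, and the rest of that group was higher. The rise of Psma7 was 1.70-fold (log2 0.77 ± 0.15 SE, adjusted p = 0.00085) with IFN-γ and 1.39-fold (log2 0.48 ± 0.15 SE, adjusted p = 0.019) with both stimuli. The remaining α subunits tested, Psma1 and Psma6, rose by a log2 of 0.41 and 0.47 with IFN-γ.

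Most of the β ring (5 of 7, against 15.3% of all genes) rose with IFN-γ, and with IFN-γ + E. coli its median change was near 0. With IFN-γ 3 of these were past the threshold, against 11.4%, and the median log2 was 0.54. With IFN-γ + E. coli 0 were past it, against 14.7%, and 1 was higher at any size, against 19.8% (median 0.10). E. coli alone raised 1 past it, against 5.05%, and 3 at any size, against 7.26% (median 0.36). The 3 members past the threshold with IFN-γ were the constitutive catalytic subunits. Psmb5 (chr14:54614119-54618022, minus strand), the chymotrypsin-like subunit β5, was at 784, 859.6 and 731 with ACs alone, 1405, 1381 and 1403 with E. coli, 1211, 1284 and 1102 with IFN-γ and 912, 1131 and 857 with IFN-γ + E. coli. Psmb5 was at 711, 754 and 906 with ACs alone and 831, 789 and 997 with IL-4 in the IL-4 experiment. The E. coli libraries were the highest of the Type 1 experiment and lay above all IFN-γ libraries, while the libraries with both stimuli reached down into the ACs range. Psmb5 rose 1.77-fold (log2 0.82 ± 0.12 SE, adjusted p = 8.6e-05) with E. coli and 1.51-fold (log2 0.60 ± 0.12 SE, adjusted p = 0.00086) with IFN-γ, and changed by log2 0.28 ± 0.12, adjusted p = 0.07 with both, which did not pass the test. Without replicate 2 of IFN-γ or the ACs replicate 3 library, its log2 change with IFN-γ was 0.55 and 0.54. Psmb6 (chr11:70525367-70527858, plus strand), the caspase-like subunit β1, was at 285, 272 and 257 with ACs alone, 493, 384 and 311 with E. coli, 413, 475 and 351 with IFN-γ and 296, 344 and 235 with IFN-γ + E. coli, and at 337, 367 and 263 with ACs alone and 315, 379 and 365 with IL-4 in the IL-4 experiment. Both single stimuli lay above ACs, whereas the libraries with both stimuli spanned the ACs range. Psmb6 rose 1.51-fold (log2 0.59 ± 0.18 SE, adjusted p = 0.017) with IFN-γ, with a log2 of 0.49 without replicate 2 of IFN-γ and 0.55 without the ACs replicate 3 library, and changed by log2 0.52 ± 0.18, adjusted p = 0.057 with E. coli and log2 0.09 ± 0.18, adjusted p = 0.72 with both stimuli. Without replicate 3 of E. coli, the log2 change with E. coli was 0.68 and passed the test.

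Psmb7 (chr2:38588036-38644087, minus strand), the trypsin-like subunit β2, was at 472, 532 and 393 with ACs alone, 653, 540.4 and 587 with E. coli, 716, 831 and 786 with IFN-γ and 438, 449.5 and 582 with IFN-γ + E. coli. Psmb7 was at 443, 483 and 397 with ACs alone and 389, 397 and 478 with IL-4 in the IL-4 experiment. The IFN-γ libraries were the highest and did not overlap any other group of the Type 1 experiment. Psmb7 rose 1.68-fold (log2 0.75 ± 0.14 SE, adjusted p = 0.00059) with IFN-γ, and with both stimuli its change was log2 0.07 ± 0.14, adjusted p = 0.73. The gene overlaps Nek6 on the opposite strand. The signs of the changes of Psmb6 and Psmb7 with both stimuli turned on the common upper quartile, at −0.052 and −0.069. The structural subunits differed among themselves. Psmb3 rose with E. coli (log2 0.58 ± 0.16, adjusted p = 0.018) and not with IFN-γ (log2 0.01 ± 0.16, adjusted p = 0.96), Psmb2 rose with IFN-γ (log2 0.54 ± 0.17, adjusted p = 0.022), and Psmb4 rose slightly in each, with a log2 of 0.36 with E. coli, 0.49 with IFN-γ and 0.30 with both. Psmb1 did not pass the test, at 0.32 with IFN-γ.

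Each constitutive catalytic subunit has an inducible counterpart, and the ratio between them within a library was described by its values, with no test. Psmb8, Psmb9 and Psmb10 all rose with IFN-γ, by a log2 of 1.11, 1.35 and 1.21, and with IFN-γ + E. coli, Psmb8 by 2.82-fold and the others by a log2 of 1.34 and 1.30, and none passed the test with E. coli or IL-4. The log2 ratio of Psmb8 to Psmb5 was 0.23 ± 0.11 (SD, n = 3) with ACs alone, −0.49 ± 0.02 with E. coli, 0.74 ± 0.16 with IFN-γ and 1.44 ± 0.06 with IFN-γ + E. coli. For Psmb9 to Psmb6 it was 0.38 ± 0.12 with ACs alone, −0.22 ± 0.34 with E. coli, 1.14 ± 0.28 with IFN-γ and 1.63 ± 0.36 with both. For Psmb10 to Psmb7 it was −0.40 ± 0.25 with ACs alone, −0.59 ± 0.11 with E. coli, 0.06 ± 0.09 with IFN-γ and 0.83 ± 0.34 with both. Among the Type 1 groups the mean ratio was thus lowest with E. coli and highest with IFN-γ + E. coli for all 3 pairs. For Psmb10 to Psmb7, however, the E. coli (−0.70 to −0.48) and ACs (−0.66 to −0.15) libraries overlapped, and the difference of their means ran from −0.31 to −0.059 when a library was left out. The ratios with ACs alone and with IL-4 were 0.31 ± 0.12 and 0.15 ± 0.07 for Psmb8 to Psmb5, −0.42 ± 0.33 and −0.22 ± 0.43 for Psmb9 to Psmb6 and −0.20 ± 0.40 and 0.36 ± 0.20 for Psmb10 to Psmb7 in the IL-4 experiment. For Psmb9 to Psmb6 the libraries with IFN-γ (0.88 to 1.43) and with both stimuli (1.31 to 2.01) overlapped, whereas for Psmb8 to Psmb5 the 4 Type 1 groups did not. The ratios are read between groups only, since counts of different genes are not on one scale of molecules.

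**Figure D3:**
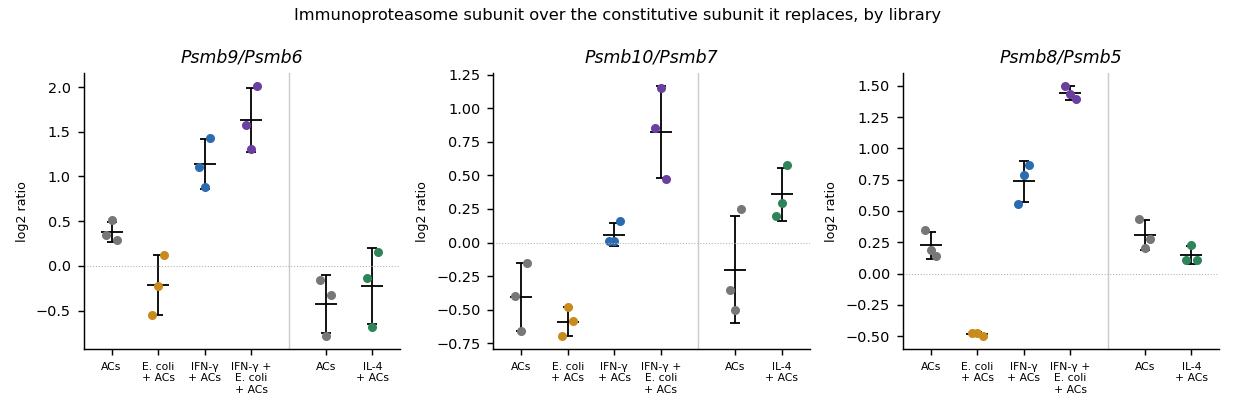
Log2 ratio of the inducible to the constitutive catalytic subunit (vertical axis) in each library of the 6 groups (horizontal axis), with a panel for each pair and bars for the mean ± SD of 3 libraries. In all 3 pairs the libraries with IFN-γ + E. coli have the highest mean (1.44, 1.63 and 0.83) and those with E. coli alone the lowest of the Type 1 experiment (−0.49, −0.22 and −0.59).

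In the base of the 19S particle the rises with IFN-γ were small and mostly under 1.5-fold. Of the 6 ATPases, 0 were past the threshold with IFN-γ, against 11.4% of all genes. At any size 4 rose (Psmc1, Psmc2, Psmc3 and Psmc6), against 15.3%. The median over the 6 was a log2 of 0.50, and all 6 were above 0. With IFN-γ + E. coli the median was 0.07, and 1 of 6 rose at any size, against 19.8%. That member was Psmc2 (log2 0.33 ± 0.12, adjusted p = 0.033). Psmc1 was at 599, 566 and 501 with ACs alone, 588, 495 and 512 with E. coli, 860.0, 816 and 815 with IFN-γ and 468, 463 and 440.1 with IFN-γ + E. coli, so that the libraries with both stimuli lay below those with ACs alone. It rose under 1.5-fold with IFN-γ (log2 0.58 ± 0.12, adjusted p = 0.00091) and changed by log2 −0.28 ± 0.12, adjusted p = 0.068 with both. Psmc3, encoding the ATPase Rpt5, was at 179.7, 214 and 197 with ACs alone, 277, 261 and 281 with E. coli, 276, 258 and 275 with IFN-γ and 192, 182 and 182 with IFN-γ + E. coli, with rises of a log2 of 0.47 with E. coli and 0.45 with IFN-γ. Both single stimuli lay above all libraries with ACs alone, and with both stimuli Psmc3 stood inside the ACs range (log2 −0.08 ± 0.13, adjusted p = 0.65). Slc39a13 overlaps Psmc3 on the opposite strand. Psmd1 (chr1:86064387-86139151, plus strand), the large scaffold Rpn2 of the base, was at 747, 839.9 and 760.1 with ACs alone, 1163, 1099 and 1109 with E. coli, 1080.3, 1270.0 and 1328 with IFN-γ and 914, 1000.4 and 1268 with IFN-γ + E. coli. Psmd1 was at 356, 294 and 515 with ACs alone and 460.0, 442 and 535 with IL-4 in the IL-4 experiment. All stimulated libraries of the Type 1 experiment lay above the ACs libraries. Psmd1 rose 1.56-fold (log2 0.64 ± 0.13 SE, adjusted p = 0.00076) with IFN-γ, under 1.5-fold without replicate 3 of IFN-γ (log2 0.58), and also rose with E. coli (log2 0.52 ± 0.13, adjusted p = 0.0086) and with both (log2 0.43 ± 0.13, adjusted p = 0.012). It overlaps Htr2b on the opposite strand and Gm21972 on the same strand. The ubiquitin receptor Psmd4 and the scaffold Psmd2 did not pass the test, at a log2 of 0.36 and 0.21 with IFN-γ.

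The lid held 8 members, of which 3 were past the threshold with IFN-γ, against 11.4% of all genes. At any size 5 rose, against 15.3% (median 0.51). With both stimuli 1 was past it, against 14.7%, while at any size 4 rose, against 19.8%, and 1 fell, against 19.3% (median 0.39). E. coli alone raised 0 past it, against 5.05%, and 3 at any size, against 7.26% (median 0.41). Psmd11 (chr11:80428615-80473248, plus strand), encoding Rpn6, a clamp between lid and core, was at 224, 344 and 241 with ACs alone, 413, 372 and 333 with E. coli, 480.1, 499 and 539.7 with IFN-γ and 402, 449.5 and 538 with IFN-γ + E. coli. Psmd11 was at 227, 185 and 236 with ACs alone and 229, 230.3 and 278 with IL-4 in the IL-4 experiment. The ACs libraries were below all libraries with IFN-γ, alone or with E. coli, while the E. coli libraries overlapped them. Psmd11 rose 1.90-fold (log2 0.93 ± 0.16 SE, adjusted p = 0.00022) with IFN-γ and 1.73-fold (log2 0.79 ± 0.16 SE, adjusted p = 0.00067) with both. Psmd8 (chr7:29174188-29180701, minus strand), encoding Rpn12, was at 734, 910.3 and 761 with ACs alone, 1085, 991 and 1095 with E. coli, 1266, 1500.4 and 1315 with IFN-γ and 1085, 1109 and 1042 with IFN-γ + E. coli, and at 1135, 1199.7 and 895 with ACs alone and 1026, 989.5 and 1095 with IL-4 in the IL-4 experiment. It rose 1.70-fold (log2 0.76 ± 0.11 SE, adjusted p = 4.6e-05) with IFN-γ, and by a log2 of 0.40 with E. coli and 0.43 with both. The IFN-γ libraries of Psmd8 lay above every other library of that experiment. Psmd7 (chr8:107580381-107588464, minus strand), encoding Rpn8, the partner of the deubiquitinase, was at 185, 163 and 186 with ACs alone, 255, 244 and 257 with E. coli, 273, 290.0 and 324 with IFN-γ and 208, 258 and 224 with IFN-γ + E. coli, and at 205, 142 and 155 with ACs alone and 179, 187 and 154 with IL-4 in the IL-4 experiment. No stimulated library of the Type 1 experiment overlapped ACs, and Psmd7 rose 1.66-fold (log2 0.73 ± 0.14 SE, adjusted p = 0.00063) with IFN-γ, and by a log2 of 0.50 with E. coli and 0.36 with both. Psmd14, the deubiquitinase itself, rose under 1.5-fold with each of E. coli, IFN-γ and both, by a log2 of 0.42, 0.57 and 0.52. Psmd13 went in opposite directions. It rose with IFN-γ (log2 0.38 ± 0.14, adjusted p = 0.048) and fell with both stimuli (log2 −0.52 ± 0.14, adjusted p = 0.006), with libraries at 564, 477 and 489 with ACs alone, 519.9, 585 and 606 with E. coli, 562, 726 and 718 with IFN-γ and 339, 412 and 316 with IFN-γ + E. coli, and Sirt3 overlaps it on the opposite strand. The other 3 lid members, Psmd3, Psmd6 and Psmd12, did not pass the test in any of the 4 comparisons.

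The 4 members that fell past the threshold were all assembly chaperones, and all fell with IFN-γ + E. coli. With IFN-γ + E. coli 4 of the 7 fell past the threshold, against 17.2% of all genes, and 1 rose, against 14.7%, with a median log2 of −0.65, whereas with IFN-γ alone 0 were past the threshold (median 0.01) and with E. coli 0 (median 0.18). Psmg1 (chr16:95979933-95990960, minus strand), encoding PAC1, was at 52.0, 65.7 and 32.6 with ACs alone, 57.8, 44.1 and 44.9 with E. coli, 59.4, 45.9 and 18.5 with IFN-γ and 21.4, 13.4 and 17.9 with IFN-γ + E. coli, and at 73.7, 51.4 and 102 with ACs alone and 67.8, 83.2 and 82.2 with IL-4 in the IL-4 experiment. The libraries with both stimuli held 15, 11 and 13 reads of it against 64, 70 and 40 with ACs alone. All 3 lay below the ACs libraries, and the highest of them lay above the lowest IFN-γ library. Psmg1 fell 2.69-fold (log2 −1.43 ± 0.38 SE, adjusted p = 0.0055) with IFN-γ + E. coli. Psmg2 (chromosome 18), encoding its partner PAC2, was at 27.6, 45.0 and 42.4 with ACs alone, 41.9, 33.5 and 55.4 with E. coli, 27.7, 29.8 and 30.8 with IFN-γ and 17.1, 7.33 and 11.0 with IFN-γ + E. coli. The libraries with both stimuli held 12, 6 and 8 reads, and no library of that group overlapped another group of the Type 1 experiment. Psmg2 fell 3.16-fold (log2 −1.66 ± 0.34 SE, adjusted p = 0.00076). Psmg2 was at 41.4, 36.6 and 85.8 with ACs alone and 40.6, 45.8 and 5.14 with IL-4 in the IL-4 experiment, where the lowest value is 1 read of the shallow replicate 3 library, and the log2 change of −1.18 had a 95% interval of −2.77 to 0.42. Psmg3 (chr5:139823592-139826885, minus strand), encoding PAC3, was at 135, 99.5 and 97.9 with ACs alone, 90.4, 115 and 95.9 with E. coli, 94.97, 128 and 111 with IFN-γ and 65.6, 72.1 and 67.6 with IFN-γ + E. coli, and at 85.0, 128 and 102 with ACs alone and 110.1, 132 and 134 with IL-4 in the IL-4 experiment. All libraries with both stimuli were below all other libraries of the Type 1 experiment, and Psmg3 fell 1.59-fold (log2 −0.67 ± 0.20 SE, adjusted p = 0.01), with a log2 of −0.52 without the ACs replicate 1 library. Gm26938 overlaps Psmg3 on the same strand.

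Psmd9 (chr5:123169413-123250131, plus strand), a chaperone of the ATPase ring, was at 59.4, 46.9 and 48.9 with ACs alone, 70.3, 56.4 and 66.0 with E. coli, 44.9, 35.5 and 32.8 with IFN-γ and 38.5, 28.1 and 31.7 with IFN-γ + E. coli. Psmd9 was at 59.4, 72.4 and 32.2 with ACs alone and 80.5, 73.8 and 82.2 with IL-4 in the IL-4 experiment. The libraries with IFN-γ, alone or with E. coli, lay below those with ACs alone. Psmd9 fell 1.57-fold (log2 −0.65 ± 0.24 SE, adjusted p = 0.043) with both stimuli, but the call was lost without any library of the 6 compared other than replicate 1 of IFN-γ + E. coli, with log2 changes of −0.71 to −0.55. Hpd overlaps it on the opposite strand. Psmg4 (chr13:34162964-34178173, plus strand), encoding PAC4, moved the other way, at 15.4, 24.4 and 25.3 with ACs alone, 20.1, 26.2 and 22.0 with E. coli, 35.6, 17.2 and 30.8 with IFN-γ and 55.6, 34.2 and 35.9 with IFN-γ + E. coli, and 30.8, 35.8 and 42.9 with ACs alone and 37.1, 29.5 and 41.1 with IL-4 in the IL-4 experiment. The libraries with both stimuli were above the ACs libraries, and 1 IFN-γ library lay among them. Psmg4 rose 1.88-fold (log2 0.91 ± 0.34 SE, adjusted p = 0.042) with both stimuli, but the call was lost without any library of the 6 compared other than replicate 2 of IFN-γ + E. coli, with log2 changes of 0.70 to 1.03, and ACs libraries held 19, 26 and 31 reads of it. Of the chaperones of the 19S base, Psmd5 rose with E. coli (log2 0.53 ± 0.15, adjusted p = 0.02) and Psmd10 with IFN-γ (log2 0.54 ± 0.18, adjusted p = 0.036), both under 1.5-fold. The inhibitor Psmf1 did not pass the test against ACs, at a log2 of −0.22 with E. coli, 0.38 with IFN-γ and 0.09 with both.

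Whether the change with both stimuli equalled the sum of the single changes on the log2 scale was tested with the interaction of IFN-γ and E. coli. The study describes E. coli as given after IFN-γ in the combined group. An effect of order or timing can therefore not be told apart from one of the combination. Of the 44 members, 12 lay below that sum past the threshold, against 4.28% of all genes, and 0 lay above it, against 3.16%, with limma, and at any size 13 lay below, against 4.47%. At an unadjusted p under 0.05 there were 28 in either direction, but the share of all genes at that p is not given here. Past the threshold, edgeR and DESeq2 also placed 0 above. All 12 were subunits of the core or the 19S particle. The 31 tested subunits of the 26S proteasome all had an interaction below 0, and 4 of the 44 members had one above 0, against 47.9% of all genes, with a median over the 31 of −0.62, beside −0.03 over all genes tested. The β ring (4 of 7 past the threshold, median −0.85) and the ATPases (3 of 6, median −0.69) had the lowest medians, followed by the lid (3 of 8, median −0.68), the rest of the base (1 of 3) and the α ring (1 of 7, median −0.40). The activator caps had 0 of 5 past the threshold (median 0.12), and the chaperones 0 of 7 (median −0.55). Yet 6 of the 7 chaperones also lay below 0. Psmg2, with few reads, had the lowest value of all 44 members (log2 −1.50 ± 0.48, adjusted p = 0.065). Psmg1 had log2 −1.07 ± 0.53, adjusted p = 0.24. Neither passed the test, so the pattern is not shown to be particular to the core and the 19S particle. Psmb5 had the largest interaction past the threshold, log2 −1.14 ± 0.17, adjusted p = 0.00034, followed by Psmd13 (log2 −1.07 ± 0.20, adjusted p = 0.0023), Psmb7 (log2 −1.03 ± 0.20, adjusted p = 0.0036) and Psmb6 (log2 −1.03 ± 0.25, adjusted p = 0.016). Psmb5 had risen with each single stimulus, and its change with both stimuli had not passed the test. Psmc3 had −1.01, Psmc5 −0.89, Psmd7 −0.87, Psmb3 −0.85, Psmc1 −0.80, Psmd1 −0.74, Psmd8 −0.73 and Psma5 −0.71. By contrast, the interaction was −0.02 for Psme1 (95% interval −0.35 to 0.32) and −0.05 for Psme2 (−0.49 to 0.39). Leaving out each library in turn kept 7 of the 12 calls. The call of Psmd1 was lost without replicate 1 of E. coli (−0.72), that of Psmb6 without replicate 2 of IFN-γ (−0.92) or replicate 1 of E. coli (−0.86), and that of Psmb3 without replicate 1 or 3 of E. coli or of ACs. Psmc5 lost its call in 6 of 12 such fits and Psma5 in 7 of 12, and without replicate 1 of E. coli 7 members were below the sum past the threshold. The macrophage markers C1qa and C1qc also had interactions below 0 past the threshold, and the part of those cells in these values was not tested.

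**Figure D4:**
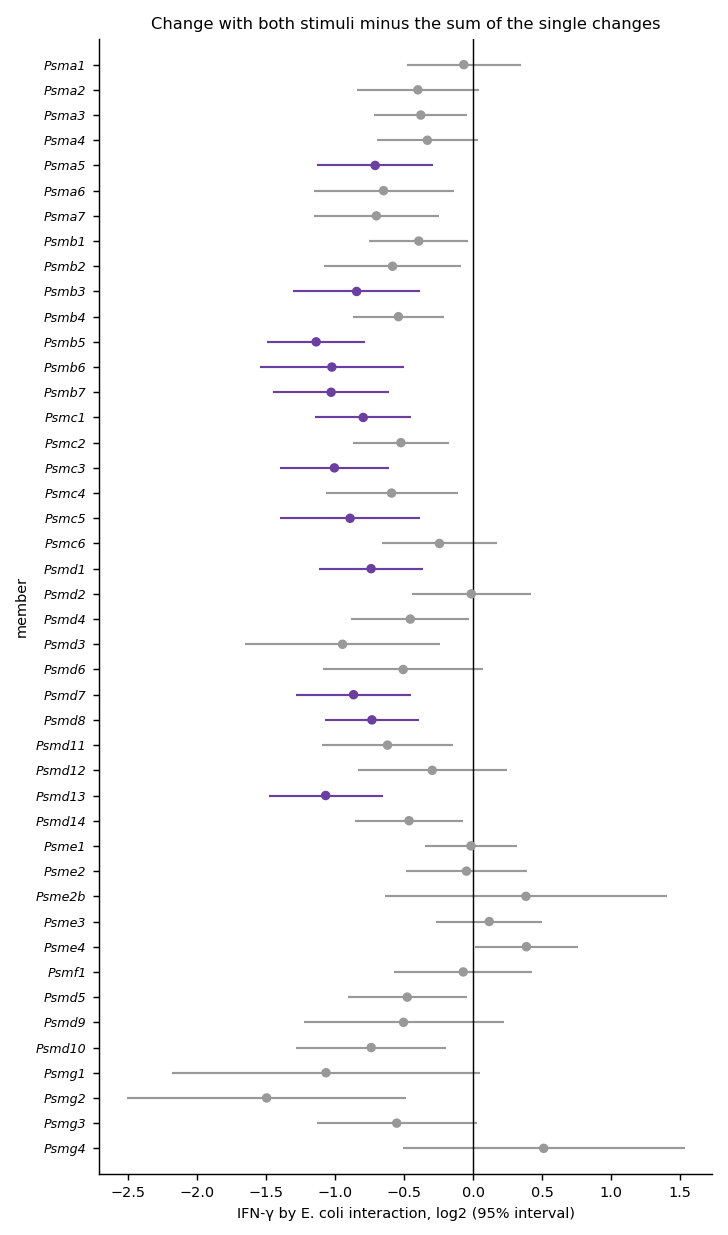
Interaction of IFN-γ and E. coli (log2 change with both stimuli minus the sum of the single changes, horizontal axis) for the 44 members tested, with 95% intervals and a line at 0. The 12 members past the threshold (purple) run from −1.14 (Psmb5) to −0.71 (Psma5), and 40 of the 44 points lie below 0.

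The single stimuli were also compared directly. With IFN-γ against E. coli, 7 members were higher past the threshold, against 9.84% of all genes, and 1 was lower, against 6.72%, with a median log2 of 0.20. The activators accounted for 3 of the 7. Psme2 was higher by 2.41-fold (log2 1.27 ± 0.15 SE, adjusted p = 3.1e-06) and Psme1 by 1.96-fold (log2 0.97 ± 0.11 SE, adjusted p = 3.2e-06), and the uncertain copy Psme2b by a log2 of 1.74. Psma5 was higher by 1.78-fold (log2 0.83 ± 0.14 SE, adjusted p = 0.00024), the ATPases Psmc1 and Psmc6 by a log2 of 0.65 and 0.61, and the inhibitor Psmf1 by 0.60 on the log2 scale. Psmd9 was lower (log2 −0.76 ± 0.24, adjusted p = 0.034), a call lost without any of the 6 libraries except replicate 1 of IFN-γ. Psmc6 lost its call without replicate 3 of IFN-γ or replicate 1 or 3 of E. coli, with log2 values of 0.51 to 0.56, and Psmf1 without replicate 2 of IFN-γ (0.40) or replicate 1 of E. coli (0.53). For the constitutive catalytic subunits the difference between the stimuli did not pass the test, at −0.22 for Psmb5, 0.07 for Psmb6 and 0.39 for Psmb7, and Psmb3 was lower with IFN-γ (log2 −0.56 ± 0.16, adjusted p = 0.014), under 1.5-fold.

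With IL-4, 0 of 43 members were past the threshold by limma, against 0.74% of genes higher and 0.347% lower, and 4 had an unadjusted p under 0.05. edgeR and DESeq2 on the recovered reads also called 0, with 4 and 3 at an unadjusted p under 0.05. The share of all genes at that unadjusted p is not given here. The median change of the members was 0.14 beside −0.01 over all genes, 34 of 43 lay above 0, against 48.9% of all genes, and the smallest adjusted p was 0.5. The 4 lid subunits Psmd6, Psmd12, Psmd13 and Psmd14 were among the 7 members whose IL-4 libraries all lay above the ACs libraries, with log2 changes of 0.41, 0.30, 0.40 and 0.35, and were chosen for naming after their values were seen. The other 3 were Psma7 (0.30), Psme3 (0.25) and Psmd9 (0.60). Intervals were wider than in the Type 1 experiment, with a 95% interval of −0.22 to 0.86 for Psma5 and −0.19 to 0.48 for Psmb5. The change with IL-4 was set against that with IFN-γ in a fit over all 18 libraries, each within its own experiment. In that test 7 members had a smaller change with IL-4, against 8.09% of all genes, and 0 a larger one, against 6.17%, with a median difference of −0.37. These were Psme2 (log2 −1.39 ± 0.26, adjusted p = 0.00067), Psma5 (log2 −1.19 ± 0.28, adjusted p = 0.0048), Psme1 (log2 −0.93 ± 0.19, adjusted p = 0.0017), Psmb7 (−0.81), Psmd8 (−0.81), Psmd11 (−0.74) and Psmd7 (−0.67). Psmd11 lost its call in 8 and Psmd7 in 9 of 12 fits that left out a library of the 4 groups, with log2 values of −0.75 to −0.62 and −0.72 to −0.51. For Psmb5 and Psmb6 the difference was log2 −0.46 ± 0.18, adjusted p = 0.1 and log2 −0.45 ± 0.25, adjusted p = 0.27. Without the ACs replicate 2 library of the IL-4 experiment, 1 member had a larger change with IL-4.

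Other genes of the pathway were read from lists made by function. Of 10 tested subunits and partners with other symbols, 3 rose past the threshold with IFN-γ (median log2 0.17), against 11.4% of all genes, and the same number with IFN-γ + E. coli (median 0.30), against 14.7%. They were Ecpas, an adaptor of the 26S particle, at 2.07-fold (log2 1.05 ± 0.14 SE, adjusted p = 9.3e-06) and 2.99-fold (log2 1.58 ± 0.14 SE, adjusted p = 3.1e-08), Pomp, the maturation factor of the core, at a log2 of 0.89 and 0.98, and Txnl1, a proteasome-bound thioredoxin, at 0.68 and 0.82. Of 15 shuttle and p97 factors, Rad23b, which carries ubiquitinated proteins, rose with IFN-γ (0.66) and with both (0.98), Nploc4 with both (0.75) and Ubqln4 with E. coli (0.85). That is 1 of 15 with IFN-γ, against 11.4% of all genes, 2 with both, against 14.7%, and 1 with E. coli, against 5.05%. Of 5 genes of ubiquitin and its activation, 1 rose with both stimuli, against 14.7% of all genes, which was Uba1, the main E1 enzyme (0.63). The list of 3 tested factors that control proteasome genes had none past the threshold, with Nfe2l1 at 0.33 and Nfe2l2 at 0.21 with IFN-γ. Among complexes of similar make-up, 10 subunits of the COP9 signalosome, a relative of the lid, had 1 rise with IFN-γ, against 11.4% of all genes. It was Cops2 at 0.71, with a median of 0.12 over the list. With both stimuli 2 fell (Gps1, −0.81, and Cops7a, −0.98), against 17.2%. Cops6 had an interaction of −1.55, the only 1 of the 10 past the threshold, against 4.28% of all genes. All 10 were below 0 (median −0.33), whereas 47.9% of all genes were above 0. Of 8 subunits of the CCT chaperonin, Cct3 alone rose with E. coli (0.71), against 5.05% of all genes, and had an interaction of −0.91, against 4.28%. Cct2 alone rose with both stimuli (0.60), against 14.7%. Counts of 1 or 2 in lists this small are not read as a result about the list. With IL-4 none of these lists had a gene past the threshold. As a check of the stimuli, 5 of 5 genes known to respond to IFN-γ rose with it, and 2 of 4 genes known to respond to IL-4 rose with that cytokine, with Chil3 at a log2 of 2.57. Of the 5 genes of the IL-4 list tested in the Type 1 experiment, 4, Chil3 among them, also rose with IFN-γ.

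The members that were not tested had almost no reads. Psma8, an α subunit of the testis, had 7 reads over all 18 libraries, Psmc3ip, which shares the name but acts in meiotic recombination, 45, and Psmb11, the β subunit of the thymus cortex, 64, so that no change could be read for them at this depth. Psme2b was below the filter in the IL-4 experiment as well.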

How the data were processed

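RNA sequencing of 18 libraries was examined, 3 in each of 6 groups taken from the titles and descriptions of the samples. For each gene of a library the deposited value was a signal, that is, its reads after division by the library's DESeq2 size factor. Per the submitters' processing notes, FastQC 0.11.5, Trim Galore, cutadapt 1.10, TopHat2 2.1.0, Bowtie2 2.2.6, HTSeq 0.6.1 and DESeq2 1.26.0 were used on GRCm38. The study's methods describe a pair of pipelines without naming the one behind this table, and the strand setting of counting is not given in the sources used here. CEL-Seq2 reads the 3′ ends only, so that levels are not comparable between genes.

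Gene identifiers were matched to GENCODE M21 without their version for 54409 of 54446 rows, and 37 were unmatched. All columns were used. Of the Psm-named rows, 4 were not protein-coding and were left out. Each library's values were whole multiples of 1 step for 99.8 to 100% of values (tolerance 0.0051), which gave back the reads, 779421 to 7782072 per library. Counts under 3 reads cannot be told from 0, and this covers counting error only.

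Fits used limma 3.58.1 (lmFit, eBayes with trend, R 4.3.3) on log2(value + 1) for genes with a mean of at least 10 over the libraries of the fit, with Benjamini-Hochberg adjustment over all genes tested (10166 in the Type 1 experiment, 10669 in the IL-4 experiment and 10414 over all libraries). The Type 1 groups and their interaction were fitted on 12 libraries, IL-4 on 6, and the difference of the IL-4 and IFN-γ changes on 18. The threshold was an adjusted p under 0.05 and at least 1.5-fold. Fold changes are on the log2(value + 1) scale and understate the change of low genes.

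Alternatives were DESeq2 1.42.0 and edgeR 4.0.16 on the reads given back, 1 fit over all 18 libraries, the replicate number as a block, array weights, a common upper quartile, a pseudocount of 5, a filter at a mean of at least 50 or above 0, no fold threshold, and leaving out each library in turn. The scripts were tested on simulated data. Python 3.11.15, numpy 2.4.6 and pandas 2.3.3 were used.

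Library values were given for members past the threshold in any comparison with ACs, at most the 12 largest changes each, and for Psmb5, Psmb6, Psmb7 and Psme1 to Psme4. Those of Psme2b, Psmc1, Psmc3 and Psmd13 were added after their values were seen. The members and gene lists were chosen with earlier results of these data known. Of the other lists, at most 4 genes each past the threshold were named.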

Additional observations from a re-analysis of the deposited data

Results flagged for a closer look

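For 12 members the change with IFN-γ + E. coli differed from the sum of the changes with the single stimuli, by the interaction term of the limma fit on the 12 libraries of the Type 1 experiment. All were below the sum on the log2 scale. In the core, the interaction was −1.14 for Psmb5, −1.03 for Psmb7, −1.03 for Psmb6, −0.85 for Psmb3 and −0.71 for Psma5. In the base of the 19S particle it was −1.01 for Psmc3, −0.89 for Psmc5, −0.80 for Psmc1 and −0.74 for Psmd1. In the lid it was −1.07 for Psmd13, −0.87 for Psmd7 and −0.73 for Psmd8. Of these, Psmb5, Psmb7, Psmc1, Psmc3, Psmd7, Psmd8 and Psmd13 kept their call without each library in turn.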

How the results depend on the processing

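Of 54 calls of members over 7 comparisons, 33 held in every setting and 34 without each library in turn, and of the values of single members under the alternatives, 1091 kept their direction and side of the threshold, 99 lost the threshold, 1 gained it and 12 changed sign. Counts moved as follows. Without a fold threshold, 10 members were higher with E. coli, 25 with IFN-γ and 17 with IFN-γ + E. coli, and 2 were lower with IFN-γ than with E. coli. On a common upper quartile, 9 were higher with IFN-γ, 4 with IFN-γ + E. coli (median log2 0.16) and 2 lower with IFN-γ than with E. coli. With array weights, 1 was lower with E. coli, 2 lower with IFN-γ than with E. coli, and 1 had a larger change with IL-4 than with IFN-γ. With a mean of at least 50, which left 39 members tested, 1 was lower with IFN-γ + E. coli. For the single member lower with IFN-γ than with E. coli, a mean of at least 50, all genes above 0 and all 18 libraries gave 0, and edgeR gave 2. The causes were not tested, except that a mean of at least 50 tests fewer genes.

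Without each library in turn, the members higher numbered 2 to 5 with E. coli, 12 to 19 with IFN-γ and 4 to 9 with IFN-γ + E. coli, and 2 to 4 were lower with both. For the interaction 7 to 15 were lower. With IFN-γ against E. coli 5 to 7 were higher and 0 to 1 lower, the 0 without replicate 1 or 3 of E. coli or replicate 2 of IFN-γ. For IL-4 against IFN-γ 5 to 9 had a smaller and 0 to 1 a larger change.

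Signs turned for changes near 0. Psme3 with IFN-γ was −0.083 on the upper quartile, −0.0031 by edgeR and −0.084 to 0.13 without a library. With IFN-γ + E. coli, Psmb6 was −0.052 and Psmb7 −0.069 on the upper quartile, and −0.041 to 0.24 and −0.060 to 0.17 without a library. With IL-4, Psmb7 was −0.16 to 0.0018 without a library, the latter without the ACs replicate 2 library, and Psmb6 −0.024 without both libraries numbered 3.

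Same-numbered libraries did not deviate together (correlations −0.09 to 0.09 over 18 pairs of the Type 1 experiment and 0.0005 to 0.02 over 3 pairs of the IL-4 experiment). With the replicate block, members higher and lower were 2 and 0 with E. coli, 14 and 0 with IFN-γ, 6 and 4 with both, 0 and 0 with IL-4 and 0 and 12 for the interaction, and Psmg4 lost its call. With IL-4, 45 genes were higher and 29 lower with the block, in place of 79 and 37. Depth limited Psmg1, Psmg2, Psmg4 and Psme2b, and, with IL-4, the libraries numbered 3.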
